A study of Saccharomyces cerevisiae with 72 samples.

Results

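A set of 10 genes of phosphate acquisition in budding yeast were followed through the response to DNA damage. They are the acid phosphatase genes PHO5, PHO3, PHO11 and PHO12, the phosphate transporter genes PHO84 and PHO89, the vacuolar genes PHO8 and VTC3, and SPL2 and PHM6. The members were taken by gene symbol, and all 10 of 10 were found, 10 of 5594 genes in one table and 10 of 5592 in the other. Each had 1 probe, the same in both tables.

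Budding yeast senses phosphate through the PHO pathway. When phosphate is plentiful, the cyclin-dependent kinase Pho80-Pho85 phosphorylates the transcription factor Pho4 and keeps it out of the nucleus. When phosphate runs short, the inhibitor Pho81 blocks the kinase, and Pho4, with its partner Pho2, switches on secreted phosphatases, high-affinity transporters and the enzymes that store phosphate as polyphosphate. PHO3, which lies beside PHO5 in the genome, is an exception among the members: its acid phosphatase is repressed by thiamine and not by phosphate.

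The series compared messenger RNA from cells given MMS (methyl methanesulfonate, which alkylates DNA) for 1 h with that of the other part of the same culture, left untreated, in strains of the BY4741 background. In the damage checkpoint, the sensor kinases Mec1 and Tel1 activate the effector kinases Rad53 and Chk1, and Dun1 acts downstream of Rad53. The kinase set of 13 strains, made from poly(A)-enriched RNA, holds the deletions rad53, mec1, tel1, chk1, dun1, sml1, crt1 and ste11, the double deletions chk1rad53, dun1rad53, tel1mec1 and chk1dun1, and the wild type. Its growth text gives 0.03% MMS and its treatment text 0.033%. The factor set of 5 strains lacking a transcription factor (hap1, hap4, sut1, rcs1 and yap7) was made from total RNA with 0.03% MMS, stands in its own table and holds no wild type. Each strain had 2 replicates of 2 arrays with opposite dyes, 72 arrays in all. The labels do not say whether the strains without MEC1 or RAD53 also lack SML1, nor whether replicates were grown as separate cultures. The p-values therefore reflect only how far these samples spread, which may be technical.

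Every value is log2 of MMS over untreated within one strain, so the data hold no levels, and the strains' starting levels cannot be compared. In a ratio from a whole culture, fewer expressing cells and less RNA per cell cannot be told apart. The arrays' number limits the precision: the median gene's 95% interval reached 0.20 on either side of a strain's mean and 0.28 on either side of a difference between strains in the kinase set. One array went against its label. It carries the label dun1, replicate 2, and has MMS in Cy5. DUN1 read 2.71 there, against -0.24 to -0.11 on the remaining 3 dun1 arrays, and MEC1 read -2.34, against -0.75 to 0.30 on the remaining 51 kinase-set arrays. The main results on dun1 are also given without it and 2 other arrays, mec1 replicate 1 with MMS in Cy5 and chk1rad53 replicate 1 with MMS in Cy3. Below, all 3 are called arrays that stand apart. The 2 others were picked with earlier results of these data known, and no measure for that choice is given here. Leaving an array out leaves its replicate with 1 dye orientation. PHO11 and PHO12 are near-identical genes and PHO3 and PHO5 are close paralogues, and the probes' positions are not given, so signal shared between the members of each pair cannot be separated.

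In the wild type, the acid phosphatase genes and the sodium-phosphate transporter gene PHO89 fell most, while the proton-phosphate transporter gene PHO84 hardly moved. Of the 10 members, 8 were called lower and 0 higher by limma at a Benjamini-Hochberg adjusted p under 0.05, beside 25.4% of all genes called lower. The members' median was -1.06, against 0.00 over all genes (0.000328).

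**Figure D1:**
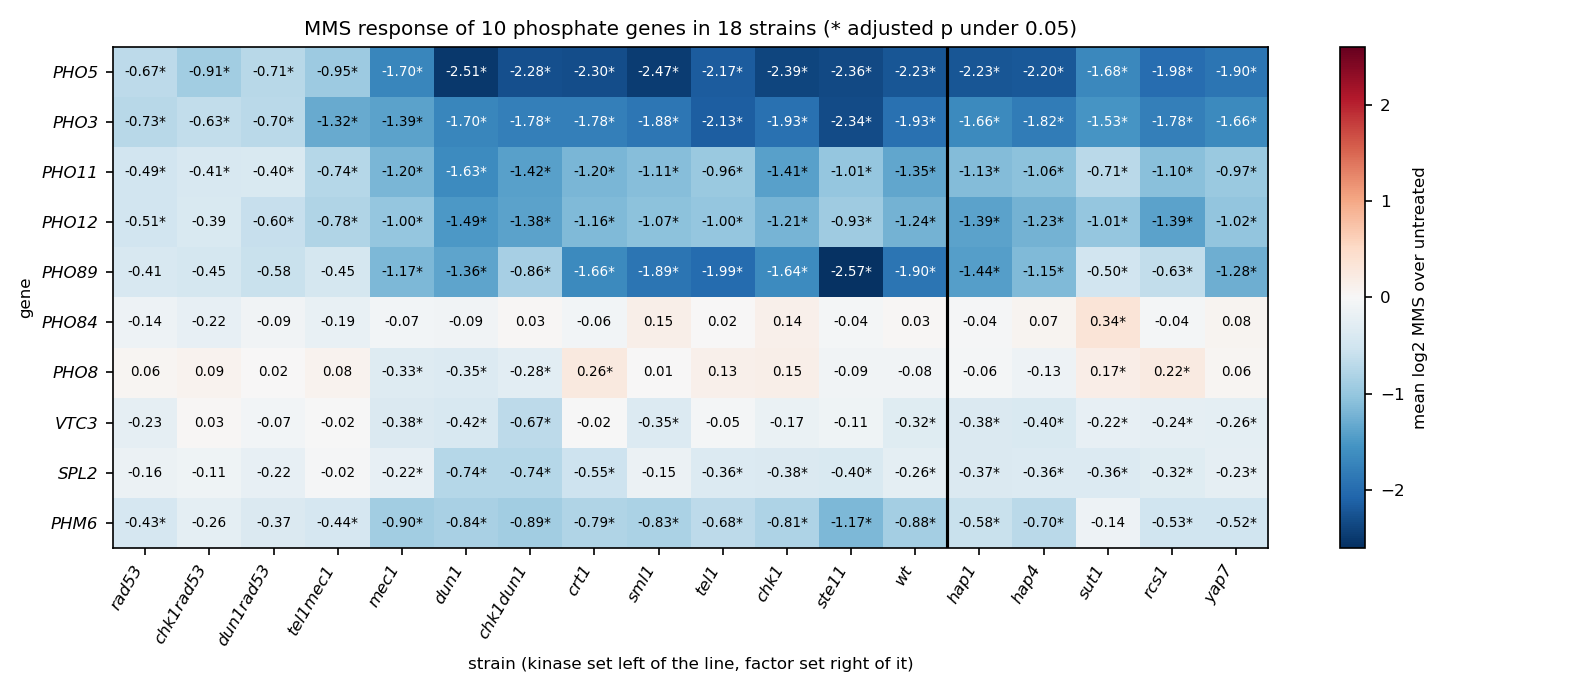
Mean log2 of MMS over untreated for each gene (rows) in each of the 18 strains (columns), with the value printed in each cell, blue for lower and red for higher under MMS, and an asterisk where limma's adjusted p was under 0.05. PHO5 is blue in every column, from -2.51 in dun1 to -0.67 in rad53 within the kinase set, and PHO84 stays between -0.22 and 0.15 in that set.

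PHO5 encodes the main secreted acid phosphatase, whose promoter is a classic model of chromatin opening by Pho4. Its 4 wild-type arrays read -2.07, -1.82, -1.99 and -3.04. The mean of the 2 replicates was -2.23 ± 0.40 (SD, n = 2), a 4.69-fold fall with adjusted p = 7.92e-09, and the gene ranked 5 from the lowest of 5594. All 52 arrays of the kinase set lay below 0, between -3.04 and -0.22 with a median of -2.07. PHO5 was called lower in all 13 strains of that set, from a mean of -2.51 in dun1 to -0.67 in rad53.

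PHO3, the thiamine-repressed neighbour of PHO5, read -2.41, -1.50, -1.66 and -2.16 on the wild-type arrays. Its mean was -1.93 ± 0.03 (SD, n = 2), with adjusted p = 1.21e-09 and rank 9 from the lowest. The close replicate means hide a wider spread between dyes within each pair. PHO3 was called lower in all 13 strains, with 51 of 52 arrays below 0, and its lowest strain mean was that of ste11, -2.34.

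PHO11 and PHO12, further secreted acid phosphatases, moved together. PHO11 read -1.65, -1.45, -1.28 and -1.04 in the wild type, with a mean of -1.35 ± 0.27 (SD, n = 2) and adjusted p = 2.19e-07. PHO12 read -1.28, -1.19, -1.46 and -1.02, with a mean of -1.24 and adjusted p = 7.30e-06. No wild-type array of either gene reached 0. PHO11 was called lower in 13 strains and PHO12 in 12, the exception being chk1rad53, where PHO12 averaged -0.39 ± 0.22 (SD, n = 2, adjusted p = 0.11).

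The high-affinity transporters parted. PHO89 encodes the sodium-coupled transporter, active at alkaline pH. It read -1.99, -2.44, -1.66 and -1.51 in the wild type, with a mean of -1.90 ± 0.45 (SD, n = 2, adjusted p = 1.55e-06). It was called lower in 9 of 13 strains, and its strain means ran widely, from -2.57 in ste11 to -0.41 in rad53. PHO84, the proton-coupled transporter that carries most high-affinity uptake, read 0.06, -0.30, -0.18 and 0.52 in the wild type, on both sides of 0. Its mean was 0.03 ± 0.21 (SD, n = 2) with a 95% interval from -0.18 to 0.24 and adjusted p = 0.85. PHO84 was called in 0 of 13 strains. Its strain means lay between -0.22 and 0.15, with an SD over strains of 0.11 against a median SD between replicates of 0.08.

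PHM6, a phosphate-regulated gene of unknown function, read -0.93, -1.17, -0.76 and -0.66 in the wild type. Its mean was -0.88 ± 0.24 (SD, n = 2, adjusted p = 4.00e-05), and it was called lower in 11 of 13 strains. SPL2, a small protein that holds back low-affinity uptake, moved less. It read -0.03, -0.72, -0.28 and 0.00 in the wild type, with a mean of -0.26 and adjusted p = 0.015, and was not called there with wild-type replicate 1 left out. It was called lower in 8 strains, most in dun1 and chk1dun1, at -0.74 in both.

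The vacuolar genes were the least stable. VTC3, a subunit of the complex that makes polyphosphate, read 1.39 and -1.51 on the opposite-dye arrays of wild-type replicate 1 and -0.60 and -0.57 on those of replicate 2. Its mean of -0.32 ± 0.37 (SD, n = 2, adjusted p = 0.016) was lost with replicate 2 left out, and turned to 0.39 (adjusted p = 0.30) over the arrays with MMS in Cy3 alone. PHO8, the vacuolar alkaline phosphatase, showed the same split in replicate 1, 0.61 and -0.91, and averaged -0.08 (adjusted p = 0.54). On ste11 replicate 2 both genes again read apart between the dyes, VTC3 at 1.12 and -1.28 and PHO8 at 0.76 and -1.28; the dye's part in these values was not tested. VTC3 was called lower in 5 of 13 strains, and PHO8 lower in 3 (mec1, dun1 and chk1dun1) and higher in crt1.

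Across the deletion strains, the number of members called lower by limma is given beside the share of all genes called in the same direction. In 4 strains the count of members was at or near that of the wild type: sml1 had 7 of 10 (25.1% of all genes), tel1 had 7 (21.9%), chk1 had 7 (23.2%) and ste11 had 7 (23.5%). The crt1 strain, which lacks the repressor encoded by RFX1, had 7 lower (23.9%) and 1 higher (26.7%), PHO8 at 0.26, a call lost in 10 of 13 repeats, among them those without either crt1 replicate. Without Mec1 there were 9 (20.3%), without Dun1 9 (18.1%) and in chk1dun1 9 (17.7%), PHO8 among them in each. PHO8 was lost without either replicate in mec1 and chk1dun1, and in dun1 without replicate 2, where it stood at -0.0626 (adjusted p = 0.75). SPL2 and VTC3 in mec1 and PHO89 in chk1dun1 were also lost without either replicate. The smallest counts were those of rad53 with 5 (16.4%), tel1mec1 with 5 (14.6%), dun1rad53 with 4 (15.3%) and chk1rad53 with 3 (8.9%). In each of these last 4 strains the members called included PHO5, PHO3 and PHO11. These calls rested on few samples. With single replicates left out, PHO11 was lost without either replicate in rad53, chk1rad53 and dun1rad53 and without replicate 1 in tel1mec1. PHO5 was lost without either in dun1rad53, without replicate 2 in rad53 and chk1rad53 and without replicate 1 in tel1mec1, and PHO3 without replicate 2 in chk1rad53 and dun1rad53. Without the 3 arrays that stand apart, chk1rad53 had 5 members lower in place of 3. In dun1, the array that goes against its label read -0.74 for PHO3. Without the 3 arrays that stand apart, 9 members were still called lower in dun1, with PHO3 at -2.05 (-1.70 with them), PHO11 at -1.34 (-1.63), SPL2 at -0.69 (-0.74) and PHO8 at -0.26 (-0.35).

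The rad53 deletion had the smallest fall of PHO5, PHO89 and, after chk1rad53 and dun1rad53, PHO3. PHO5 read -0.22, -0.41, -1.39 and -0.67 on the 4 rad53 arrays, against -2.07, -1.82, -1.99 and -3.04 in the wild type. The values do not overlap, and the difference was 1.56, with a 95% interval from 1.03 to 2.09 and adjusted p = 0.000297. PHO89 read -0.36, 0.22, -1.24 and -0.26 in rad53 and -1.99, -2.44, -1.66 and -1.51 in the wild type, a difference of 1.49 (0.81 to 2.16, adjusted p = 0.0030). Here too every rad53 array lay above every wild-type array. PHO3 read -0.80, -0.88, -0.86 and -0.38 in rad53, again above all wild-type arrays, and differed by 1.20 (0.80 to 1.60, adjusted p = 0.000240). The 4 arrays of a strain are dye-swap pairs and not 4 separate samples, and the share of all genes without overlap was not counted. Samples also did not overlap in 5 of 10 members for tel1 minus wild type, where 0 were called. With PHO11 (0.86) and PHO12 (0.73), 5 of 10 members were called higher in rad53 than in the wild type, beside 10.3% of all genes, and 0 lower.

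**Figure D2:**
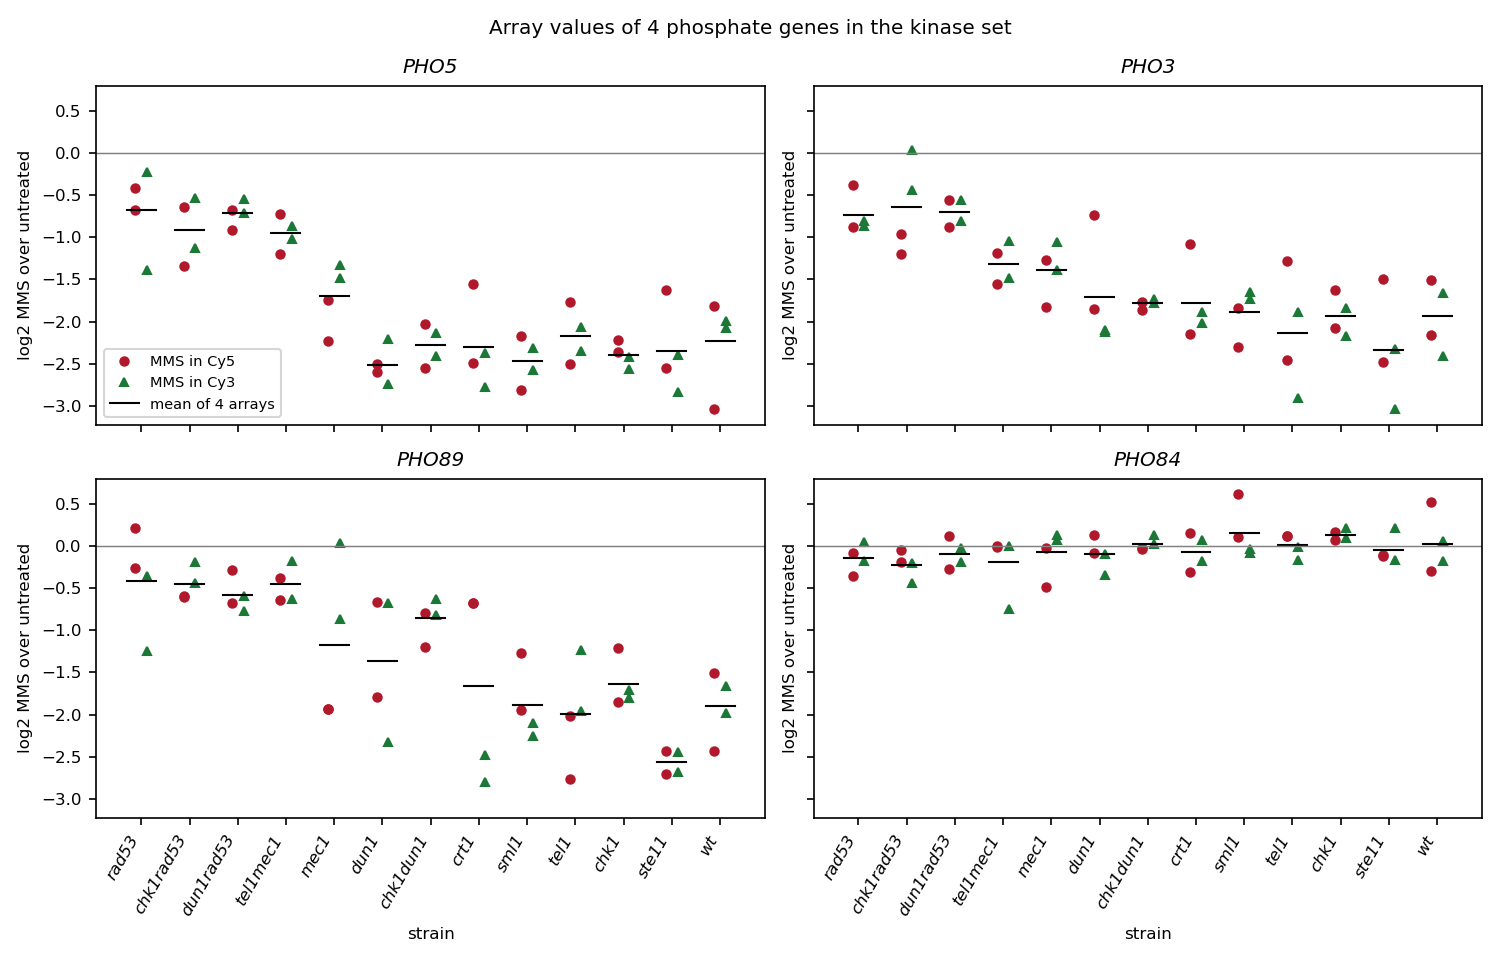
Each point is one array's log2 of MMS over untreated (y axis) in a strain of the kinase set (x axis), circles for MMS in Cy5, triangles for MMS in Cy3, with a line at the mean of the 4 arrays. For PHO5, PHO3 and PHO89 the arrays of rad53, chk1rad53 and dun1rad53 lie above those of the wild type, and PHO84 lies on both sides of 0, between -0.74 and 0.62.

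The double deletions that remove Rad53, and the loss of Mec1 and Tel1 together, were set against the same wild-type samples, which all 4 differences share. In chk1rad53, 6 members were called higher (6.31% of all genes): PHO89 by 1.45, PHO5 by 1.32, PHO3 by 1.30, PHO11 by 0.94, PHO12 by 0.85 and PHM6 by 0.62. In dun1rad53 there were 4 (7.58%): PHO5 by 1.52, PHO89 by 1.32, PHO3 by 1.23 and PHO11 by 0.95. In tel1mec1 there were also 4 (5.06%): PHO89 by 1.44, PHO5 by 1.28, PHO3 by 0.62 and PHO11 by 0.61. PHO5 and PHO89 were thus called in all 4 strains, with differences between 1.28 and 1.56 and between 1.32 and 1.49. PHO3 differed by 0.62 in tel1mec1 and by 1.20 to 1.30 in the 3 strains without Rad53. PHO84, PHO8, VTC3 and SPL2 were called in none of the 4.

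These differences depended on how the arrays were scaled. The response to MMS was smaller over all genes in these strains, with 1066 genes called higher and 917 lower in rad53, against 1498 and 1419 in the wild type. With every array scaled to one spread, 18 of the 19 calls against the wild type were lost and 1 was gained. The difference of PHO89 in rad53 was then 1.02 (adjusted p = 0.044), that of PHO5 0.95 (adjusted p = 0.064) and that of PHO3 0.65 (adjusted p = 0.11), and the difference of PHO3 in tel1mec1 turned to -0.17. Among the 98 genes called and at least 2-fold lower in the wild type, a group chosen on that response, the median gene kept 47.7% of its wild-type log2 change in rad53, with quartiles of 30.2% and 72.1%. PHO89 kept 21.6%, PHO5 30.1%, PHO11 36.4%, PHO3 37.8% and PHO12 40.9%, all below that median, though 15 to 40 of the 98 genes kept less than each of them. The other 3 strains differed in this. In tel1mec1, PHO3 kept 68.0%, PHO12 62.9% and PHO11 54.8%, above the median of 50.2%, while PHO5 kept 42.8% and PHO89 23.9%. In chk1rad53, PHO5 kept 40.8% beside a median of 40.1%, and the other 4 members 23.8% to 32.8%. In dun1rad53 all 5 kept 29.5% to 48.1%, below the median of 51.8%.

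Single replicates mattered for some of these calls. With each replicate left out in turn, PHO3 and PHO11 stayed called in rad53, chk1rad53 and dun1rad53, PHO5 in rad53 and dun1rad53, and PHO89 in rad53. Over the arrays with MMS in Cy5 alone, however, PHO3 and PHO11 lost the call in all 3 strains, with PHO3 at 0.76 to 1.20 and PHO11 at 0.78 to 0.97. Over those with MMS in Cy3 alone, PHO89 lost it in rad53 (1.02, adjusted p = 0.10) and dun1rad53 (1.14, adjusted p = 0.093). PHO5 stayed called over either orientation in the 3 strains. PHO12 in rad53 was lost without either wild-type replicate or rad53 replicate 2. The calls of PHO12 and PHM6 in chk1rad53 were lost without either wild-type replicate or chk1rad53 replicate 1, and those of PHO5 and PHO89 there without chk1rad53 replicate 1. In tel1mec1, PHO3 was lost without any one of the 4 replicates, PHO11 without either tel1mec1 replicate or wild-type replicate 1, PHO5 without wild-type replicate 2 and PHO89 without wild-type replicate 1. PHO89 in chk1rad53 and dun1rad53 also needed wild-type replicate 1, and in dun1rad53 replicate 2 of that strain.

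**Figure D3:**
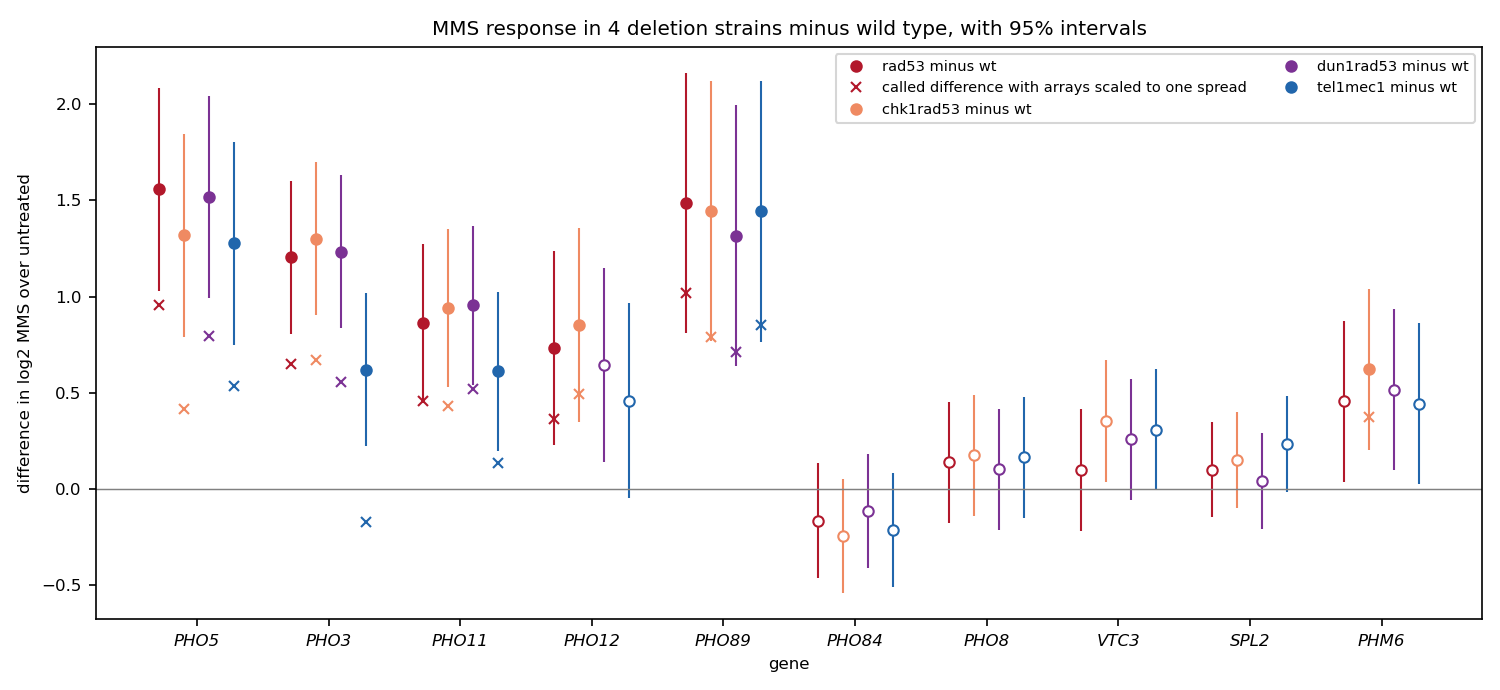
Difference in log2 MMS over untreated (y axis) of 4 deletion strains minus the wild type for each gene (x axis), with 95% intervals; filled circles are called at an adjusted p under 0.05, open circles are not, and crosses give the called differences with every array scaled to one spread. PHO5 and PHO89 lie between 1.28 and 1.56 before scaling, and the crosses lie lower.

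Pooling gave the comparison more samples. The p-values of pooled strains, here and below, rest on the spread between replicates within strains. They do not measure the spread between the strains pooled. The 8 samples of rad53, chk1rad53, dun1rad53 and tel1mec1 were set against the 10 samples of sml1, tel1, chk1, ste11 and the wild type. The latter have Mec1, Rad53 and Dun1, here called the whole pathway, though tel1 and chk1 each lack a checkpoint kinase. Strains were grouped by genotype, with earlier results of these data known. The mec1 strain, in neither group, had means of -1.70 for PHO5, -1.39 for PHO3 and -1.17 for PHO89. Of the 10 members, 7 were called higher (25.1% of all genes) and 1 lower (24.8%). PHO89 ran from -0.75 to -0.07, with a median of -0.47, in the strains without Rad53 or without Mec1 and Tel1, against -2.70 to -1.50, with a median of -1.90, in the strains with the whole pathway. The groups did not overlap and differed by 1.52 (1.20 to 1.85, adjusted p = 1.39e-07).

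PHO5 ran from -1.23 to -0.31 with a median of -0.77 in the first group, against -2.69 to -1.95 with a median of -2.38 in the second, a difference of 1.51 (1.26 to 1.76, adjusted p = 5.12e-09). PHO3 ran from -1.33 to -0.46 against -2.40 to -1.74, a difference of 1.20 (adjusted p = 2.67e-09). These also did not overlap, and the share of all genes without overlap was not counted. PHO11 (0.66), PHO12 (0.52), PHM6 (0.50) and SPL2 (0.18) were called higher with overlapping samples. PHO84, called in no single strain of the set, averaged -0.16 in the first group and 0.06 in the second, a difference of -0.22 (-0.36 to -0.08, adjusted p = 0.011). PHO8 (0.04, adjusted p = 0.66) and VTC3 (0.13, adjusted p = 0.14) were not called. With every array scaled to one spread, PHO89 differed by 1.14, PHO5 by 1.01 and PHO3 by 0.75, all still called, and PHO12 and SPL2 were lost. PHO84 and SPL2 were lost over either dye orientation alone, and PHO12 over the arrays with MMS in Cy5.

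**Figure D4:**
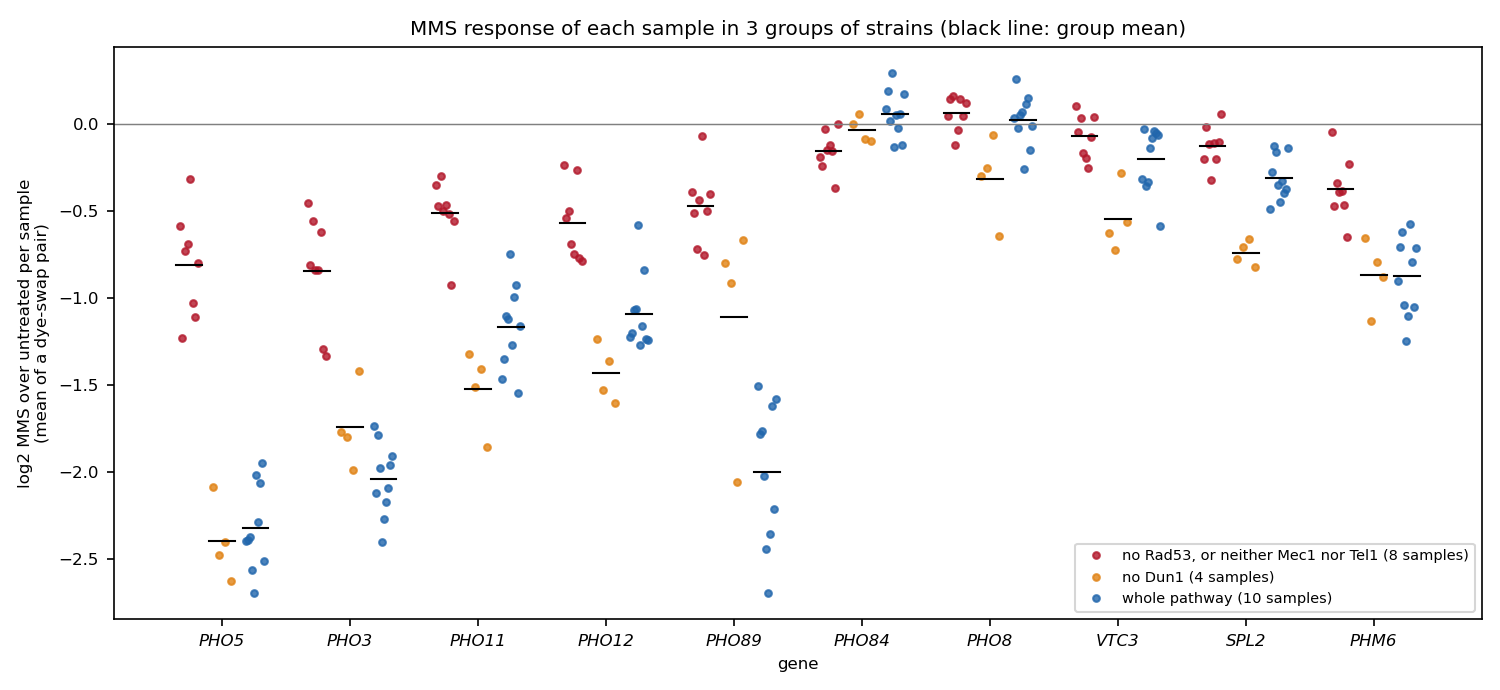
Each point is one sample's log2 MMS over untreated (y axis), the mean of its dye-swap pair, for each gene (x axis) in 3 groups of strains of the kinase set, with black lines at the group means. Samples without Rad53 or without both Mec1 and Tel1 lie above those with the whole pathway for PHO5, PHO3 and PHO89 without overlap. SPL2 lies lowest in the group of dun1 and chk1dun1, and dun1rad53 is drawn with the strains without Rad53.

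Loss of Dun1, the kinase that acts below Rad53, gave another pattern. Against the same 10 samples with the whole pathway, the 4 samples of dun1 and chk1dun1 had 1 member called higher (1.57% of all genes) and 3 called lower (4.31%). The words without Dun1 stand below for dun1 and chk1dun1 only. The dun1rad53 strain, which also lacks Dun1, was not in this group. Its means were -0.22 for SPL2, -0.07 for VTC3, 0.02 for PHO8 and -0.58 for PHO89. SPL2 read between -0.82 and -0.66 in dun1 and chk1dun1, against -0.49 to -0.13 with the whole pathway, with no overlap. The difference was -0.43 (-0.58 to -0.29, adjusted p = 0.00085). The share of all genes without overlap was not counted here either. VTC3 (-0.35, adjusted p = 0.025) and PHO8 (-0.34, adjusted p = 0.028) were also lower, with overlapping samples. PHO89 was higher by 0.89 (adjusted p = 0.0080), and PHO5 averaged -2.40 without Dun1 and -2.32 with the whole pathway (difference -0.07, from -0.39 to 0.24, adjusted p = 0.84). Without 3 arrays that stand apart, among them the one that goes against its dun1 label, all 4 calls remained, SPL2 at -0.41 and PHO89 at 0.89. PHO89 was lost with dun1 replicate 2 or chk1dun1 replicate 1 left out, and with every array scaled to one spread it differed by 0.48 (adjusted p = 0.20). VTC3 and PHO8 were each lost with any one of 4 or 5 replicates left out, dun1 replicate 2, chk1 replicate 2 and both chk1dun1 replicates among them. SPL2 lost its call over either dye orientation, at -0.43 with MMS in Cy5 alone (adjusted p = 0.27) and -0.44 in Cy3 alone (0.080). VTC3 and PHO8 were also lost over either, with VTC3 at -0.04 over MMS in Cy5 alone. PHO89 was lost over MMS in Cy3 alone (0.87, adjusted p = 0.054).

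The remaining 8 deletion strains had 0 members called against the wild type by limma. The share of all genes called was 0% in sml1, 0% in tel1, 0% in ste11, 0.0179% in chk1, 0.268% in crt1, 0.518% in chk1dun1, 0.59% in dun1 and 1.56% in mec1. At an unadjusted p under 0.05, 0 members passed in sml1 (138 of all genes), 0 in tel1 (283), 0 in chk1 (247) and 1 in ste11 (113 of all genes), PHO3. There were 2 in crt1 (473 of all genes), PHO8 and SPL2. There was 1 in dun1 (661), SPL2, which differed by -0.49 (adjusted p = 0.065), or by -0.43 (adjusted p = 0.059) without the 3 arrays that stand apart, where dun1 also had 0 calls. In chk1dun1 there were 3 (595), PHO89, SPL2 and VTC3, and in mec1 3 (545), PHO3, PHO5 and PHO89. Without the 3 arrays, PHO3 was called higher in mec1 than in the wild type (0.66, adjusted p = 0.017). In mec1, PHO5 differed from the wild type by 0.53 (0.01 to 1.06, adjusted p = 0.51) and PHO89 by 0.72 (0.05 to 1.40, adjusted p = 0.46), so the size of any change without Mec1 alone was poorly bounded.

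Direct contrasts between deletion strains compared each double deletion with its single deletions, and mec1 with rad53. In chk1rad53, 5 members were called higher than in chk1 (3.22% of all genes): PHO5 by 1.48, PHO3 by 1.30, PHO89 by 1.19, PHO11 by 1.00 and PHO12 by 0.82. In dun1rad53, 4 were called higher than in dun1 (0.59%): PHO5 by 1.80, PHO11 by 1.23, PHO3 by 1.00 and SPL2 by 0.53. Without the 3 arrays that stand apart, dun1rad53 minus dun1 was 0.94 for PHO11 and 1.35 for PHO3. PHO12 and PHO89 in chk1rad53 minus chk1 were lost with any one of their 4 replicates left out, and PHO12 also without the 3 arrays (0.66, adjusted p = 0.061). PHO3 in dun1rad53 minus dun1 was lost without replicate 1 of either strain, and SPL2 without either dun1rad53 replicate or dun1 replicate 2.

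In tel1mec1, 3 members were called higher than in tel1 (2.86%): PHO89 by 1.54 (adjusted p = 0.0036), PHO5 by 1.22 (adjusted p = 0.0031) and PHO3 by 0.82 (adjusted p = 0.0082). PHO3 was lost without tel1mec1 replicate 1, PHO5 without tel1mec1 replicate 2 and PHO89 without tel1 replicate 1. With every array scaled to one spread, PHO3 (0.38, adjusted p = 0.43) and PHO5 (0.85, adjusted p = 0.14) were not called in tel1mec1 minus tel1, while PHO89 was (1.24). The same scaling ended the calls of PHO5 (1.03, adjusted p = 0.062), PHO89 (0.95, adjusted p = 0.077) and PHO12 (0.71, adjusted p = 0.080) in chk1rad53 minus chk1 and of PHO3 (-0.74, adjusted p = 0.081) in mec1 minus rad53. Tel1mec1 minus mec1 had 0 calls by limma (2.38%), though 6 members passed at an unadjusted p under 0.05 (774 of all genes), all higher in tel1mec1, PHO5 by 0.74 and PHO89 by 0.72. The mec1 strain was lower than rad53 in 3 members (4.81%): PHO5 by -1.02 (adjusted p = 0.018), PHO11 by -0.70 (0.033) and PHO3 by -0.66 (0.038). PHO5 fell short of the threshold there without the 3 arrays that stand apart (-0.84, adjusted p = 0.056), and each of these 3 calls was lost without mec1 replicate 1 or rad53 replicate 1. PHO3 and PHO11 were lost without rad53 replicate 2 as well.

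Adding a deletion of CHK1 or DUN1 to rad53 changed no member past the threshold. For chk1rad53 minus rad53 and dun1rad53 minus rad53, 0 genes of the whole table were called by limma (0% and 0%), and 0 members passed at an unadjusted p under 0.05 (322 and 136 of all genes). The members' differences lay between -0.24 and 0.26 and between -0.17 and 0.16. Chk1dun1 minus dun1 also had 0 calls (0%, with 0 members and 181 genes at an unadjusted p under 0.05), with members between -0.25 and 0.51. Chk1dun1 minus chk1 had 0 members called (0.751%), while PHO89, PHO8, SPL2 and VTC3 passed at an unadjusted p under 0.05 (463 genes). PHO89 was higher there by 0.79, and SPL2 lower at -0.36 and VTC3 lower at -0.50.

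Some arrays of the contrasted strains shared a slide. Within the slide that held tel1mec1 and the wild type, on arrays of opposite dyes, tel1mec1 minus wild type was 2.02 for PHO5, 1.12 for PHO3 and 0.88 for PHO89, while PHO11 showed no such difference (0.00128). Within the 2 slides that held mec1 and rad53, mec1 minus rad53 was -1.92 and -0.65 for PHO5, -0.99 and -0.67 for PHO3 and -1.09 and -0.42 for PHO11. The pooled strains without Rad53 or without Mec1 and Tel1 shared only 1 slide with those of the whole pathway. It was again the slide of tel1mec1 and the wild type, with the same tel1mec1 array against opposite-dye arrays of wild type and sml1. It held no strain without Rad53. The differences there were 1.91 for PHO5, 1.19 for PHO3, 1.10 for PHO89 and 0.0457 for PHO11. SPL2 stood at -0.33, opposite to its pooled sign, and PHO84 at -1.31, beside -0.22 pooled. For the strains without Dun1 minus those with the whole pathway, 2 slides were shared, and only dun1 stood for the first group. These slides gave -0.31 and -0.49 for SPL2 and 0.38 and 1.21 for PHO89. For VTC3 they gave -0.14 and -0.13, and for PHO8 -0.13 and -0.47. The second slide held the dun1 array that goes against its label, and its whole-pathway arrays all had MMS in Cy3. Slides were not used for the factor set. A further fit had the slide as a random block and took single arrays, not dye-swap means, as its units. Its fitted correlation within slides was -0.14. There limma called 20 differences from the wild type in place of 19, counts that differ in the unit of the fit as well. PHO3 was lost in tel1mec1 minus wild type (adjusted p = 0.22). PHO3 was also lost in tel1mec1 minus tel1 (0.062) and mec1 minus rad53 (0.24), VTC3 (0.17) and PHO8 (0.076) without Dun1, and VTC3 in the wild type (0.19), all as adjusted p.

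The factor set gave the members a second table, with other strains and other RNA. PHO5 read from -2.73 to -1.55 on its 20 arrays with a median of -1.99, PHO3 from -2.20 to -1.02, PHO11 from -1.30 to -0.48 and PHO12 from -1.67 to -0.74. No array of these 4 genes lay at or above 0, and all 4 were called lower in all 5 strains. So were PHO89, with strain means from -1.44 in hap1 to -0.50 in sut1, SPL2 (-0.37 to -0.23) and VTC3 (-0.40 to -0.22). Over the arrays with MMS in Cy5 alone VTC3 in sut1 (0.04) and SPL2 in yap7 (0.02) lost their direction. PHO84 ran from -0.04 to 0.08 in 4 strains and was called higher in sut1, where its arrays read 0.67, 0.11, 0.01 and 0.56 (mean 0.34), though not with sut1 replicate 1 left out.

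By strain, hap1 had 8 members lower (27% of all genes), hap4 had 8 (26.1%) and yap7 had 8 (26.2%). The rcs1 strain, which lacks the iron regulator Aft1, had 8 lower (27.3%) and PHO8 higher at 0.22 (29.6%), and sut1 had 7 lower (22.5%) and PHO8 and PHO84 higher (24.7%). Set against the mean of the other 4 strains, sut1 had 1 member higher (0.0715%): PHM6 read -0.08, -0.32, -0.27 and 0.13 in sut1, a mean of -0.14, against -0.58 in the others. The difference was 0.45 (0.30 to 0.60, adjusted p = 0.048), and it was lost with any one replicate of the set left out and with the replicate number as a block. In 7 of 10 members sut1 passed at an unadjusted p under 0.05 (855 of all genes), with PHO89 higher by 0.63 and PHO5 by 0.40.

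The other 4 factor strains had 0 members called against the rest by limma, beside 1.61% of all genes in hap1, 2.38% in hap4, 0.268% in rcs1 and 0.0536% in yap7. At an unadjusted p under 0.05 there were 3 members in hap1 (719 of all genes), 2 in hap4 (1027), 3 in rcs1 (682) and 2 in yap7 (185). In hap1, PHO89 was lower at -0.55 (-0.83 to -0.27, adjusted p = 0.071).

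Pairs of members were compared by how their strain means varied over the 13 strains of the kinase set. This is a description over strains that share one array design and dye scheme, and no grouping was run. PHO11 and PHO12 had a Pearson r of 0.98, and their probes may share signal. PHO5 had an r of 0.91 with PHO3, 0.89 with PHO11, 0.86 with PHM6 and 0.82 with PHO89. PHO8 and VTC3 had an r of 0.79, and PHO8 had an r of 0.11 with PHO3, 0.23 with PHO5 and 0.46 with PHO11. VTC3 had an r of 0.63 with PHO11 and 0.64 with PHO12, and SPL2 one of 0.76 with PHO12. PHO89 had an r of 0.55 with PHO11 and 0.54 with PHO12. PHO84 ran the other way, with an r of -0.73 with PHO5 and -0.68 with PHO3, over strain means with an SD of 0.11. The response of all genes was also smaller in the strains without Rad53, and its part in each r was not tested.

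Among 371 genes whose strain means had an SD of at least 0.3, those most like PHO5 over the 13 strains were URA1 (r = 0.95), NDE1 (0.92), CDC20 (0.91), KIN3 (0.91) and SRX1 (0.91). URA1, of pyrimidine synthesis, averaged -0.76 in rad53 and -1.91 in the wild type. SRX1, which encodes sulfiredoxin, rose under MMS in both, by 3.31 in rad53 and 2.41 in the wild type. Over the 5 strains of the factor set the same genes had an r of 0.42, -0.52, 0.84, 0.00248 and 0.14 with PHO5. Those most like PHO84 were PCH2 (0.90), YHK8 (0.89), RIM4 (0.89), SDS24 (0.88) and TVS1 (0.88), with r between -0.97 and 0.41 in the factor set.

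Other genes of the phosphate system are given beside the wild-type shares of all genes, 26.8% higher and 25.4% lower. Among 10 signalling genes in the wild type, PHO85, the kinase that inactivates Pho4, rose by 0.55, and 2 fell, PHO4 among them at -0.56, with a list median of 0.14. PHO4 was lower in every whole-pathway strain, from -0.85 in sml1 to -0.46 in tel1. It was not called in rad53 (-0.25) or tel1mec1 (-0.20). In chk1rad53 and dun1rad53, 1 of the 10 signalling genes was called lower in each, and the PHO4 values there are not given here. Pooled, PHO4 was higher by 0.32 without Rad53 or without Mec1 and Tel1 (adjusted p = 0.00108). PHO85 rose in all 13 strains, by 0.26 in chk1rad53 to 0.59 in mec1 and sml1.

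Among 10 further Pho4 targets and polyphosphate genes, 4 rose and 3 fell in the wild type, with a list median of 0.17. PHM8, a phosphatase of lysophosphatidic acid and nucleotides, rose by 1.42, and VTC5, an accessory subunit of the polyphosphate complex, fell at -0.54. PHM8 rose by 1.12 less in the pooled strains without Rad53 or without Mec1 and Tel1 (log2 difference -1.12). Among 10 measured genes of low-affinity transport and polyphosphate breakdown, 2 rose and 4 fell in the wild type, with a median of -0.15. PHO90, a low-affinity transporter, fell at -0.74 and was called lower in all 13 strains. PPN2, a vacuolar endopolyphosphatase, fell at -0.74 and PIC2, a mitochondrial carrier, rose by 0.83. PIC2 minus wild type was -1.06 in rad53, -1.02 in chk1rad53 and -1.05 in dun1rad53. In the pooled comparison, 3 of this list were called higher and 2 lower.

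Thiamine genes were listed because thiamine represses PHO3. Of 17, 10 rose and 2 fell in the wild type (26.8% and 25.4% of all genes), with a median of 0.29 beside -1.93 for PHO3. The near-identical THI5, THI11, THI12 and THI13, which make the pyrimidine part of thiamine, rose by 0.58, 0.67, 0.58 and 0.60, and THI6 by 0.50. In rad53, 0 of 17 rose and 2 fell (19.1% and 16.4% of all genes), with a median of -0.01. Pooled over the strains without Rad53 or without Mec1 and Tel1, 11 of 17 were called lower than with the whole pathway and 2 higher (24.8% and 25.1% of all genes), with a median difference of -0.25 against 0.01 over all genes, where PHO3 was higher by 1.20.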

How the data were processed

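Both tables hold, per the file headers and labels, one log ratio per probe and array of a 2-colour design, normalised by the authors with limma, per the submitters' processing notes; the version is not given in the sources used here. The deposited values were taken as log2 of Cy5 over Cy3, an assumption, since base and centring are not stated. Direction came from the dyes in the labels: the sign was turned where MMS was in Cy3. As deposited, opposite-dye arrays correlated at -0.876 to -0.174 (kinase set) or -0.847 to -0.633 (factor set). Dye-swap pairs were averaged to 1 value per replicate.

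Of 6269 probes in the kinase table, 5620 had 1 gene symbol and 649 none; of 6256 in the factor table, 5609 had 1 and 647 none. Probes of a gene were averaged. Each table was fitted on its own over all its strains with limma 3.58.1 (statmod 1.5.0, R 4.3.3), with 13 and 5 residual degrees of freedom and 6.57 and 4.80 prior ones, and p-values were adjusted by Benjamini-Hochberg over all genes at a threshold of 0.05. The scripts were tested on simulated data. Intensities were not used here. PHO88 was not analysed here.

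The members, strain groups, gene lists and alternatives were chosen with earlier results of these data known. All members were named; of the other phosphate and thiamine genes, those called with an absolute log2 of at least 0.5 in the wild-type response or 1 elsewhere, up to 6 a list, and always PHO4 and PHO85; and the 5 genes most like PHO5 and PHO84. Alternatives changed the dyes used, centring, scaling, slide, replicate block, unit of the fit, spread estimate, samples, probe choice and replicates.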

Additional observations from a re-analysis of the deposited data

Results flagged for a closer look

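Of 180 gene and strain combinations of 4 arrays, 10 had 1 array far from the other 3, where chance gives about 1 in 20. PHO3 in rad53 stood at -0.38 on the array of replicate 2 with MMS in Cy5, with the others from -0.88 to -0.80. PHO11 in dun1 stood at -2.45 on the array of replicate 2 with MMS in Cy5, with the others from -1.41 to -1.27. PHO12 in dun1 stood at -1.83 on the array of replicate 2 with MMS in Cy5, with the others from -1.40 to -1.33. PHO12 in chk1rad53 stood at 0.0960 on the array of replicate 1 with MMS in Cy3, with the others from -0.59 to -0.50. PHO84 in tel1mec1 stood at -0.74 on the array of replicate 1 with MMS in Cy3, with the others from -0.00405 to 0.00304. PHO84 in ste11 stood at 0.22 on the array of replicate 2 with MMS in Cy3, with the others from -0.16 to -0.10. SPL2 in rad53 stood at -0.0396 on the array of replicate 1 with MMS in Cy5, with the others from -0.21 to -0.19. SPL2 in chk1rad53 stood at 0.21 on the array of replicate 2 with MMS in Cy5, with the others from -0.24 to -0.19. SPL2 in dun1rad53 stood at 0.16 on the array of replicate 1 with MMS in Cy5, with the others from -0.39 to -0.32. PHO84 in yap7 stood at -0.0993 on the array of replicate 2 with MMS in Cy3, with the others from 0.12 to 0.15. Both values in dun1 come from the array that goes against its label.

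Differences in the response between strains passed limma's adjusted threshold in 47 of 280 cases, in log2. For rad53 minus wt, the difference was PHO3 1.20, PHO5 1.56, PHO11 0.86, PHO12 0.73 and PHO89 1.49. For tel1mec1 minus wt, the difference was PHO3 0.62, PHO5 1.28, PHO11 0.61 and PHO89 1.44. For chk1rad53 minus wt, the difference was PHO3 1.30, PHO5 1.32, PHO11 0.94, PHO12 0.85, PHO89 1.45 and PHM6 0.62. For dun1rad53 minus wt, the difference was PHO3 1.23, PHO5 1.52, PHO11 0.95 and PHO89 1.32. For no Rad53 or no Mec1 and Tel1 minus whole pathway, the difference was PHO3 1.20, PHO5 1.51, PHO11 0.66, PHO12 0.52, PHO84 -0.22, PHO89 1.52, SPL2 0.18 and PHM6 0.50. For no Dun1 minus whole pathway, the difference was PHO8 -0.34, PHO89 0.89, SPL2 -0.43 and VTC3 -0.35. For tel1mec1 minus tel1, the difference was PHO3 0.82, PHO5 1.22 and PHO89 1.54. For chk1rad53 minus chk1, the difference was PHO3 1.30, PHO5 1.48, PHO11 1.00, PHO12 0.82 and PHO89 1.19. For dun1rad53 minus dun1, the difference was PHO3 1.00, PHO5 1.80, PHO11 1.23 and SPL2 0.53. For mec1 minus rad53, the difference was PHO3 -0.66, PHO5 -1.02 and PHO11 -0.70. For sut1 minus other factor strains, the difference was PHM6 0.45.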

How the results depend on the processing

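Over 2467 repeats of called member values, 2143 kept their direction and call, 320 kept the direction and lost the call, and 4 turned direction: VTC3 in the wild type (0.39, MMS in Cy3 alone), PHO3 in tel1mec1 minus wild type (-0.17, arrays scaled to one spread), VTC3 in sut1 (0.0420, MMS in Cy5 alone) and SPL2 in yap7 (0.0232, MMS in Cy5 alone). Of 19 called differences from the wild type, 8 remained in number over MMS in Cy5 alone and 2 after scaling, which by construction removes a response that is smaller over all genes. The 4 calls without Dun1 became 1 over MMS in Cy5 alone, 0 over MMS in Cy3 alone and 2 with only those strains fitted, and the 15 calls between deletion strains 3 and 8 over Cy5 and Cy3 alone. Single orientations hold fewer arrays. The 1 call of a factor strain against the others became 0 over either orientation, 0 with the replicate block, 0 with trend and robust settings and 4 with arrays as units. Apart from scaling and fewer arrays or strains, the cause was not tested.

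With each replicate left out, counts ran from 7 to 7 in the wild type (8 with all), 76 to 80 in the deletion strains (80), 14 to 20 against the wild type (19), 8 to 9 without Rad53 or without Mec1 and Tel1 (8), 1 to 6 without Dun1 (4), 12 to 16 between deletion strains (15), 37 to 42 in the factor set (42) and 0 to 1 between factor strains (1). In each of these counts, only comparisons that held the left-out strain were retaken, and the rest kept their calls with all samples. Ranges that cover many strains are therefore narrow by construction and do not show how stable the single calls were. Replicate numbers do not pair the samples: same-numbered deviations had an r from -0.46 to 0.43 over 78 strain pairs of the kinase set, 18 over 0.1, and from -0.40 to 0.15 over 10 of the factor set, 2 over 0.1. With the replicate block the same 8 counts were 8, 78, 17, 8, 4, 15, 41 and 0. A filter on dim probes was not run, as no intensities were used here.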
